A study of Mus musculus with 18 samples.

Results

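Collagen is modified, folded and crosslinked by a small set of enzymes and chaperones, and 10 of their genes were followed here in osterix-derived mouse cells, with and without conditional loss of Pth1r, which encodes a receptor of parathyroid hormone. The genes are P4ha1, P4ha2, P4ha3, Plod1, Plod2, Plod3, Serpinh1, Lox, Loxl2 and Pcolce. They were chosen by name, for their known roles, with earlier results of these data already known. They are 10 of the 54446 gene IDs in the count files. All 10 passed the filter on low counts in the test across all genes. RNA was measured at postnatal day 21 in 6 groups of 3 libraries, 18 in all. The knockout groups, labelled as conditional Pth1r knockouts, were marrow stromal cells (GFP-negative, Tm-positive), GFP-positive bone cells and bone cells that were GFP-negative and Tm-positive. The control groups, labelled wild type, were the same 3 sorted subsets. The labels do not name the Cre driver, the cells it acts in, the meaning of Tm or the number of animals per library, and do not state that the libraries are of separate mice, so the p-values measure the spread between these libraries.

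Inside the endoplasmic reticulum, prolyl 4-hydroxylases and lysyl hydroxylases add hydroxyl groups to procollagen chains, which gives the triple helix its thermal stability and prepares lysines for crosslinks. A dedicated chaperone, the product of Serpinh1, then holds the folded helix until it leaves for the Golgi. Outside the cell the propeptides are cut off and lysyl oxidases oxidise lysines and hydroxylysines, so that fibrils become crosslinked. In bone this machinery serves mainly type I collagen, and in cartilage type II.

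Library totals ran from 16443595 to 27160257 counts. In each subset the knockout range of Pth1r lay below the control range, at 318 to 372 CPM (counts scaled to the library total after TMM normalisation, the usual CPM) in knockout marrow cells against 541 to 580 CPM in control marrow cells. Chondrocyte marker genes were abundant in the GFP-positive bone subset, which the labels describe as bone cells. There the 9 chondrocyte markers summed to 259520 to 274790 CPM in knockout and 131660 to 157840 CPM in control libraries, scaled to library totals without TMM. Col2a1 is 1 of the 9 and had, with TMM, 263650 ± 14545 CPM (SD) in knockout against 84637 ± 11220 CPM in control libraries. Much of the sum is thus Col2a1, and the other markers were not summed apart. The 9 osteoblast markers summed to 53618 to 71069 CPM in the same knockout and 44582 to 72981 CPM in the same control libraries. The osteoblast sum was 97987 to 136020 CPM in knockout against 195400 to 265390 CPM in control marrow cells, and 393970 to 481520 CPM in knockout against 287600 to 318200 CPM in control GFP-negative bone cells. Col1a1 and Col1a2, both on this list, had with TMM 366840 ± 83454 and 153910 ± 19805 CPM (SD) in knockout GFP-negative bone. In control GFP-negative bone they had 231720 ± 15244 and 69540 ± 7378 CPM. The osteoblast sum there is thus mostly these collagens, and the other markers were not summed apart. The 7 marrow stroma markers summed to 52736 to 65554 CPM in knockout and 25924 to 38433 CPM in control marrow cells. Their sum was 629.9 to 790 CPM in knockout against 374 to 412 CPM in control GFP-positive bone. In GFP-negative bone it was 3433 to 3849.5 CPM in knockout against 1220 to 1651 CPM in control cells. The chondrocyte sum was lower in knockout GFP-negative bone, at 21598 to 24350 CPM against 34003 to 45656 CPM in control cells. In marrow it was 2740 to 3109.5 CPM in knockout against 2151 to 2569 CPM in control cells. In every group each of these 3 lists had all its genes at a mean of 1 CPM or more. Leukocyte and endothelial marker sums were at most 44.3 CPM in any library. The knockout marrow library of replicate 2 held 274 CPM of megakaryocyte markers, where no other library passed 5.22 CPM. Erythroid markers summed to 468 CPM in replicate 2 of knockout GFP-positive bone, against 34.7 and 127 CPM in replicates 1 and 3. In replicate 2 of control GFP-negative bone they summed to 470 CPM, against 19.7 and 55.7 CPM in replicates 1 and 3. In such bulk samples fewer cells of a type and less RNA per cell cannot be told apart, and the part that marker shifts play in the results below was not tested.

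In the knockout, P4ha1, P4ha2, Plod1, Serpinh1 and Pcolce fell in all 3 subsets. The share of all genes that fell in all 3 subsets was not counted, and whether such a shared fall is unusual was not tested. Marker sums of other cell types were lower in the same knockout libraries. The 6 fibroblast markers summed to 619 to 1067 CPM in knockout against 2531 to 3818 CPM in control marrow cells, 389.9 to 448 CPM in knockout against 789.6 to 1078 CPM in control GFP-positive bone, and 3489 to 4566 CPM in knockout against 5727 to 6042 CPM in control GFP-negative bone. The 5 smooth muscle markers summed to 90.4 to 129 CPM in knockout against 508 to 2262 CPM in control marrow cells, 12.3 to 21.7 CPM in knockout against 29.4 to 45.6 CPM in control GFP-positive bone, and 28.7 to 54.9 CPM in knockout against 185.5 to 248.9 CPM in control GFP-negative bone. Neither list overlapped between knockout and control in any subset. Of the fibroblast markers, 1, 2 and 6 averaged 1 CPM or more in knockout marrow, GFP-positive bone and GFP-negative bone, against 4, 4 and 6 in the controls, and of the smooth muscle markers 5, 2 and 3, against 5, 2 and 5. The 6 adipocyte markers were higher in the knockout of each subset without overlap, at 3604 to 3800.0 CPM in knockout against 1880.2 to 2969.8 CPM in control marrow cells and at most 197 CPM in any bone library. The part of these shifts in the falls was not tested. The other 5 genes varied by subset. Plod2 and Lox rose in both bone subsets, P4ha3 and Loxl2 rose in GFP-positive bone, P4ha3 fell in marrow, and Plod3 fell in marrow and in GFP-negative bone. In marrow, 7 of the 10 genes were lower and 0 higher at an adjusted p under 0.05, where 47.9% of all 15516 genes tested were called, 23.1% of the 15516 higher and 24.8% lower in the knockout. In GFP-positive bone, 5 were lower and 4 higher, where 51.3% of all genes were called, 26.0% higher and 25.3% lower. In GFP-negative bone, 6 were lower and 2 higher, where 47.1% of all genes were called, 21.5% higher and 25.7% lower. The median log2 fold change of the 10 genes was -0.85 in marrow, -0.14 in GFP-positive bone and -0.40 in GFP-negative bone, against -0.043, 0.030 and -0.066 over all genes tested. Leaving out single libraries gave 6 to 8, 5 to 9 and 7 to 8 called genes in marrow, GFP-positive bone and GFP-negative bone, and the lowest of these, 5, came without replicate 2 of the knockout GFP-positive bone cells. Without the knockout marrow library that held megakaryocyte markers, the marrow falls of P4ha1, P4ha2, P4ha3, Plod1, Serpinh1 and Pcolce were still called, that of Plod3 was not (-0.17, adjusted p = 0.175), and Plod2 was called lower (-0.40, adjusted p = 0.0434).

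**Figure D1:**
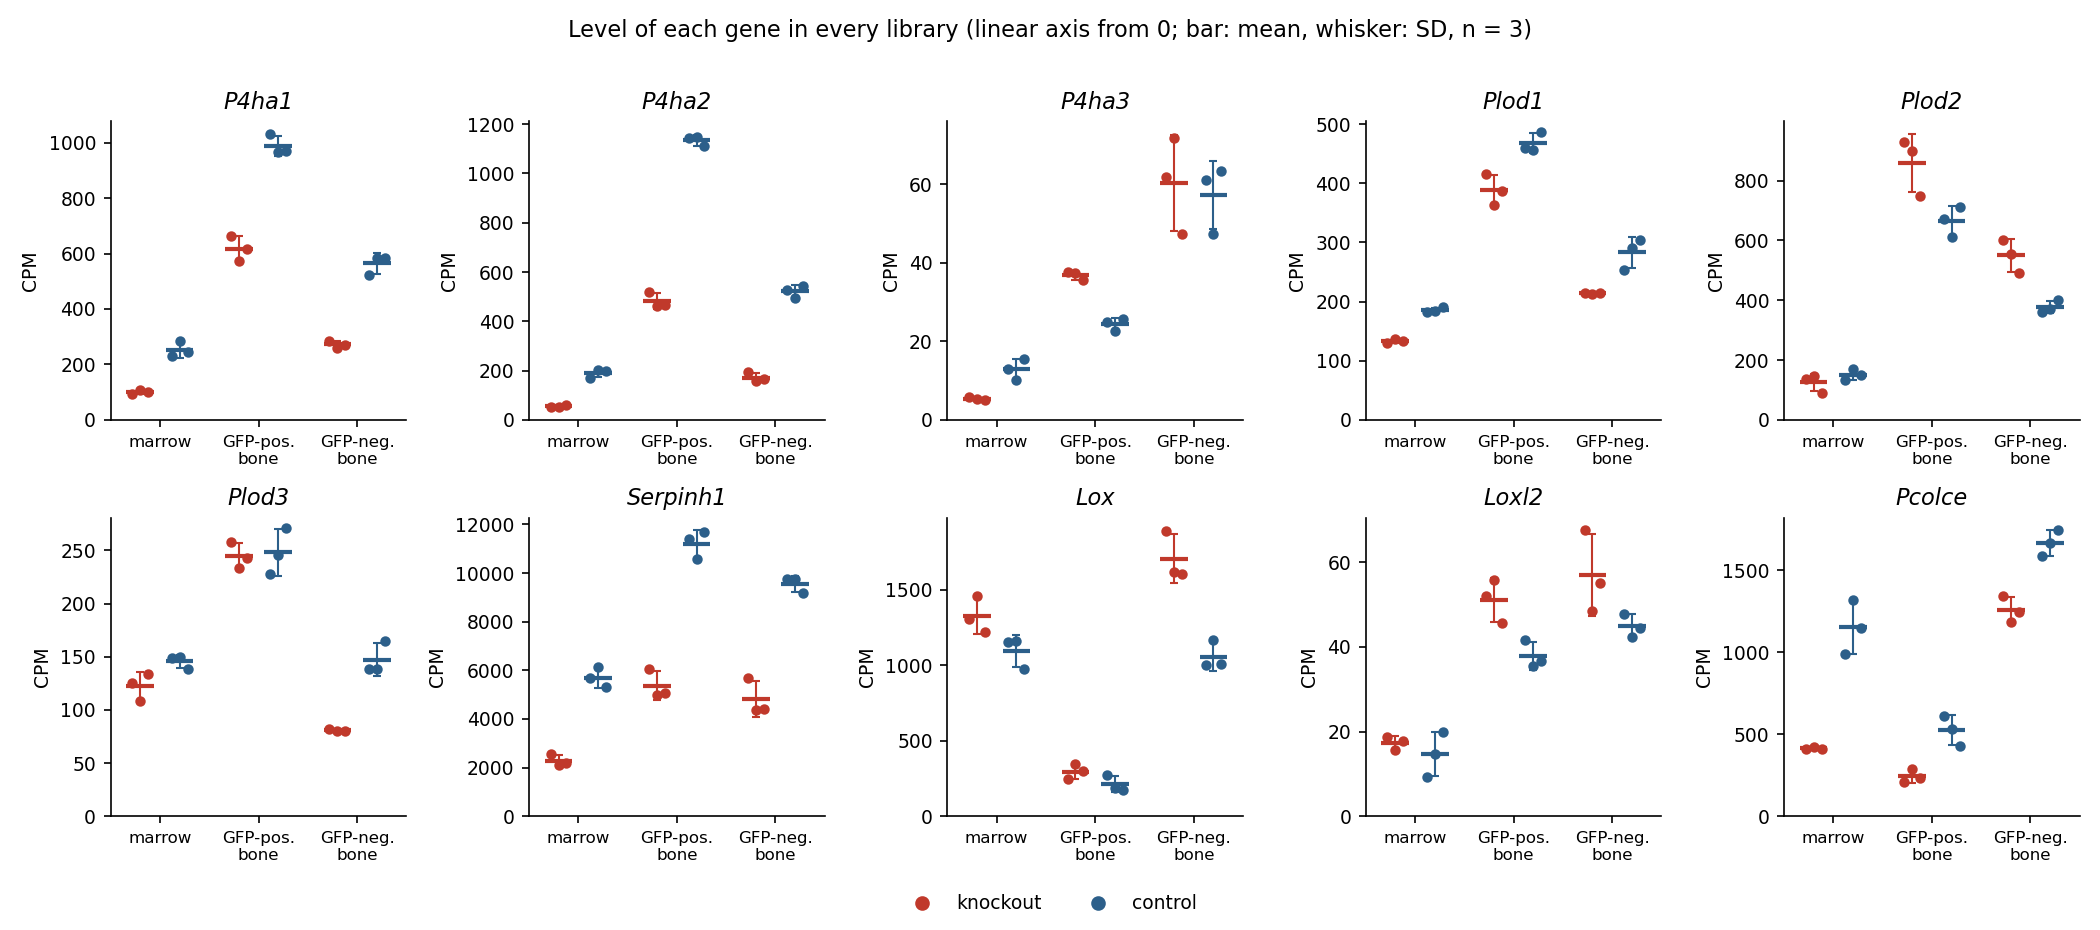
Level of each gene in each of the 18 libraries, in CPM on a linear axis from 0. Points are libraries, bars are means and whiskers SD over 3 libraries, knockout in red to the left of control in blue. Knockout libraries of P4ha1, P4ha2, Plod1, Serpinh1 and Pcolce lie below the control libraries of the same subset in all 3 subsets.

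Because P4ha1, P4ha2, Plod1, Serpinh1 and Pcolce moved the same way in the 3 subsets, their proximal promoters are shown for comparison. The windows are the 250 bases before the transcription start, from RefSeq on build GRCm38.p6, written 5′ to 3′ on the strand of the gene. They lie at chr10:59323046-59323295 (plus strand) for P4ha1, chr11:54100674-54100923 (plus strand) for P4ha2, chr4:147936777-147937026 (minus strand) for Plod1, chr7:99353240-99353489 (minus strand) for Serpinh1 and chr5:137611405-137611654 (minus strand) for Pcolce. In P4ha2 and Pcolce the RefSeq start lies inside the span that the files give for the gene. Capitals mark ACGTG and GCGTG on either strand, the core letters recognised by hypoxia-inducible factors, since prolyl and lysyl hydroxylases and lysyl oxidases are textbook hypoxia targets.
P4ha1: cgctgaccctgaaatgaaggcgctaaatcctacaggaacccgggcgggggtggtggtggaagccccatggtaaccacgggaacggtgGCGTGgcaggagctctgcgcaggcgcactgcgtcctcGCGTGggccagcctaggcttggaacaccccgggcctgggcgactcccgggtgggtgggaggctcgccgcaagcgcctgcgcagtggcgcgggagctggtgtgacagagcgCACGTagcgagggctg
P4ha2: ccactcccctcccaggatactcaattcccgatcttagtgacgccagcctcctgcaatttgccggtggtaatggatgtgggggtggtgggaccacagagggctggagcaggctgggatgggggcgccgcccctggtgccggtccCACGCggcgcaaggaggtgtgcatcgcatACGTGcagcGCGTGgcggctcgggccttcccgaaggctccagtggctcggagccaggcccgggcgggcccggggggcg
Plod1: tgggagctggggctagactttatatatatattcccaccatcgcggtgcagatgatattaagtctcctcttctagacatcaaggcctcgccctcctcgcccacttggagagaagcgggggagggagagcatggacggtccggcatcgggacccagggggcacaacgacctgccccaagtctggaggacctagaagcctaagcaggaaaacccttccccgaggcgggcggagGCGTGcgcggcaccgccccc
Serpinh1: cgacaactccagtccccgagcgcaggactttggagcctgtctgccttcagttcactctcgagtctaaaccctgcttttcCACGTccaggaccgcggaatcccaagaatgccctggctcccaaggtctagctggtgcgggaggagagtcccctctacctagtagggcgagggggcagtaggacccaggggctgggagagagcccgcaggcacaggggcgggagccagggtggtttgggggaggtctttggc
Pcolce: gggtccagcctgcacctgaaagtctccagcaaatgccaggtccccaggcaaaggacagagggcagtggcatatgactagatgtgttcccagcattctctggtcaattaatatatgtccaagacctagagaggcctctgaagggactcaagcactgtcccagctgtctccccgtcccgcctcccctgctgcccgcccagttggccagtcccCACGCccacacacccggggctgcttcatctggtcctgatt
P4ha1 held 1 ACGTG and 2 GCGTG, and P4ha2 also 1 and 2. Plod1 held 1 GCGTG, Serpinh1 1 ACGTG and Pcolce 1 GCGTG. No match overlapped another in these 5 windows. Windows were analysed for 7 of the 10 genes, and 6 of the 7 held either motif, all but P4ha3. Plod3, which was not called in GFP-positive bone, held 1 ACGTG and 3 GCGTG, more matches than any of the 5 windows shown. Of 32851 RefSeq windows of the same length, 16.6% held ACGTG, 28.2% GCGTG and 38.6% either. Such a match is a description of letters, and whether hypoxia-inducible factors act on these genes was not tested. The promoters of Plod2, Lox and Loxl2 were not analysed here.

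P4ha1 encodes the main catalytic alpha subunit of prolyl 4-hydroxylase (ENSMUSG00000019916.14, mm10 chr10:59323296-59373304, plus strand). In marrow, P4ha1 had 93.0, 107 and 102 CPM in the 3 knockout libraries, against 229, 285 and 244 CPM in the 3 control libraries. GFP-positive bone showed 662, 572.5 and 617 CPM in knockout, against 1029, 966 and 969.6 CPM in control libraries. GFP-negative bone showed 284, 261 and 272 CPM in knockout, against 522, 585 and 585 CPM in control libraries. Each knockout library lay below each control library of its subset. For knockout over control the log2 fold changes were -1.33 ± 0.094 (SE) in marrow, -0.68 ± 0.092 in GFP-positive bone and -1.05 ± 0.093 in GFP-negative bone (n = 3 against 3, edgeR quasi-likelihood test with Benjamini-Hochberg adjustment, adjusted p = 5.95e-09, 5.21e-06 and 5.60e-08). The fall was 2.52-fold in marrow, 1.60-fold in GFP-positive bone and 2.07-fold in GFP-negative bone.

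P4ha2, a second catalytic alpha subunit that is prominent in chondrocytes and osteoblasts, had the largest fall of the 10 genes in each subset (ENSMUSG00000018906.14, mm10 chr11:54100095-54131665, plus strand). In marrow, P4ha2 had 51.9, 54.5 and 61.3 CPM in knockout libraries, against 171, 201 and 199.6 CPM in control libraries. In GFP-positive bone it had 520.5, 460.5 and 465 CPM in knockout, against 1144, 1149 and 1109.8 CPM in control libraries. In GFP-negative bone it had 194, 157 and 165 CPM in knockout, against 526, 497 and 544 CPM in control libraries. No knockout library reached the level of a control library of its subset. The log2 fold changes of knockout over control were -1.77 ± 0.0996 (SE) in marrow, -1.24 ± 0.096 in GFP-positive bone and -1.60 ± 0.098 in GFP-negative bone, 3.41-, 2.35- and 3.04-fold lower (edgeR adjusted p = 7.58e-10, 8.89e-09 and 1.33e-09).

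P4ha3, the least abundant alpha subunit, went its own way (ENSMUSG00000051048.17, mm10 chr7:100285520-100319699, plus strand). In marrow, P4ha3 had 5.86, 5.45 and 5.07 CPM in knockout libraries, against 12.9, 10.3 and 15.4 CPM in control libraries. Its level in GFP-positive bone was 37.6, 37.4 and 35.6 CPM in knockout, against 25.1, 22.7 and 25.7 CPM in control libraries. Its level in GFP-negative bone was 61.9, 71.8 and 47.4 CPM in knockout, against 61.1, 47.5 and 63.3 CPM in control libraries. Knockout libraries were lower without overlap in marrow, higher without overlap in GFP-positive bone, and mixed with the controls in GFP-negative bone. The log2 fold changes were -1.23 ± 0.18 (SE) in marrow, 0.59 ± 0.15 in GFP-positive bone and 0.080 ± 0.15 in GFP-negative bone (edgeR adjusted p = 1.79e-05, 0.00299 and 0.689). With library totals in place of TMM scaling, which shifts the median of all genes, the rise in GFP-positive bone was 0.21 (adjusted p = 0.350).

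Among the 3 alpha subunits the composition changed as well. On the TPM scale (transcript counts scaled to the same total in each library, from counts per merged exon length), P4ha2 made up 25.5 ± 1.58% of the summed P4ha1, P4ha2 and P4ha3 TPM in knockout marrow cells against 31.8 ± 1.27% in control marrow cells (SD, n = 3 each). Its TPM share was 32.3 ± 0.65% in knockout against 42.3 ± 0.85% in control GFP-positive bone, and 24.3 ± 1.67% in knockout against 35.0 ± 1.48% in control GFP-negative bone. The P4ha3 share was 17.0 ± 3.29% in knockout against 7.64 ± 1.10% in control GFP-negative bone, and 4.93 ± 0.33% in knockout against 1.82 ± 0.12% in control GFP-positive bone. None of these 5 pairs of groups overlapped, and each had an exact two-sided permutation p of 0.1, the smallest that 3 against 3 libraries can give. The P4ha3 share in marrow was 4.98 ± 0.64% in knockout and 4.32 ± 1.05% in control cells, and those groups overlapped. Which of P4ha1 and P4ha2 had the higher TPM depended on the length used: in control GFP-positive bone the P4ha2 share was 42.3% by merged exon length and 59.3% by the longest annotated transcript.

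**Figure D2:**
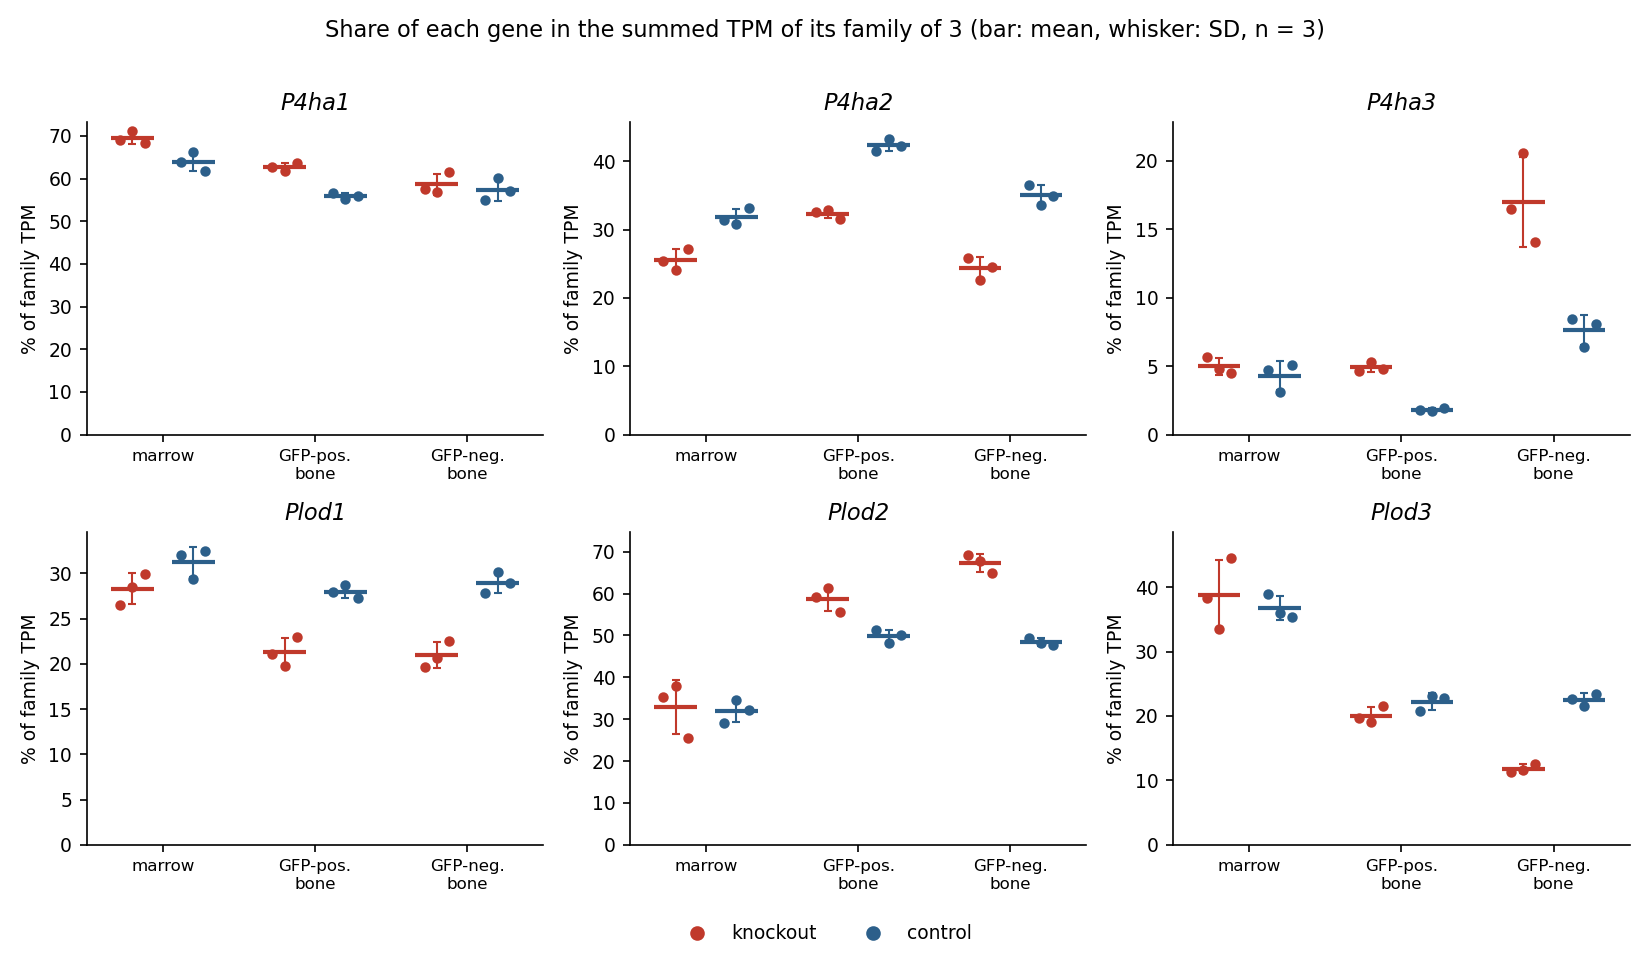
Share of each gene in the summed TPM (merged exon length) of the 3 prolyl 4-hydroxylase alpha subunits, top, and of the 3 lysyl hydroxylases, bottom, in percent on axes from 0. Points are libraries, bars are means and whiskers SD over 3 libraries, knockout in red to the left of control in blue. The P4ha2 share is lower in knockout than in control libraries of every subset, and the Plod2 share is higher in both bone subsets.

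Plod1, the lysyl hydroxylase that acts on lysines of the triple helix, fell least in marrow and in GFP-positive bone among the 5 genes that fell in all 3 subsets (ENSMUSG00000019055.15, mm10 chr4:147909753-147936767, minus strand). In marrow, Plod1 had 130.2, 137 and 134 CPM in knockout libraries, against 183, 183 and 191 CPM in control libraries. GFP-positive bone showed 415, 363 and 388 CPM in knockout, against 459.8, 456 and 487 CPM in control libraries. GFP-negative bone showed 215, 213 and 214 CPM in knockout, against 254, 290.3 and 305 CPM in control libraries. The groups did not overlap in any subset. Knockout over control, the log2 fold changes were -0.47 ± 0.079 (SE) in marrow, -0.27 ± 0.078 in GFP-positive bone and -0.41 ± 0.079 in GFP-negative bone, 1.39-, 1.20- and 1.32-fold lower (edgeR adjusted p = 7.34e-05, 0.00783 and 0.000312). The call in GFP-positive bone ended without replicate 3 of the control (adjusted p = 0.0532) or without replicate 2 of the knockout libraries (adjusted p = 0.0504), and with a correction for transcript length the fall there was -0.81 or -0.62, by merged exon length or longest transcript.

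Plod2, the lysyl hydroxylase of the telopeptides, whose product leads to the hydroxylysine crosslinks of bone and cartilage, was higher in the knockout of both bone subsets (ENSMUSG00000032374.14, mm10 chr9:92542223-92608428, plus strand). In GFP-positive bone, Plod2 had 928, 898 and 747 CPM in knockout, against 672, 610.0 and 713 CPM in control libraries. In GFP-negative bone it had 603, 554 and 493 CPM in knockout, against 360.0, 370.5 and 401 CPM in control libraries. In marrow it had 138, 146 and 91.4 CPM in knockout, against 133, 172 and 151 CPM in control libraries. Knockout libraries were higher without overlap in both bone subsets, and the marrow groups overlapped. The log2 fold changes were 0.37 ± 0.14 (SE) in GFP-positive bone, 0.55 ± 0.14 in GFP-negative bone and -0.27 ± 0.14 in marrow (edgeR adjusted p = 0.0362, 0.00383 and 0.126). After the merged exon length correction they were 0.043 in GFP-positive bone and 0.35 in GFP-negative bone (adjusted p = 0.827 and 0.0553). With library totals in place of TMM they were -0.015 and 0.31 in these subsets (adjusted p = 0.943 and 0.0774). Over 16 other settings the rise was called in 7 in GFP-positive bone and in 13 in GFP-negative bone.

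Plod3, a lysyl hydroxylase that also adds sugars to hydroxylysine, fell mainly in GFP-negative bone (ENSMUSG00000004846.10, mm10 chr5:136987019-136996648, plus strand). There Plod3 had 82.2, 79.9 and 80.1 CPM in knockout, against 138, 139 and 165 CPM in control libraries. In marrow it had 126, 108 and 133 CPM in knockout, against 149, 150.2 and 139 CPM in control libraries. In GFP-positive bone it had 258, 234 and 243 CPM in knockout, against 228, 246 and 271 CPM in control libraries. The groups were apart in GFP-negative bone and in marrow and overlapped in GFP-positive bone. The log2 fold changes were -0.87 ± 0.097 (SE) in GFP-negative bone, -0.25 ± 0.095 in marrow and -0.021 ± 0.094 in GFP-positive bone (edgeR adjusted p = 7.31e-07, 0.0334 and 0.876). The marrow call ended in 8 of 16 other settings, among them the removal of any of 4 single libraries, with an adjusted p of up to 0.404. Plod3 overlaps Znhit1 on the opposite strand, and the strand setting of the counting was not given in the sources used here. Its counts are uncertain to that extent.

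As a share of the 3 lysyl hydroxylases in TPM, Plod2 made up 58.7 ± 2.90% in knockout against 49.8 ± 1.58% in control GFP-positive bone, and 67.2 ± 2.12% in knockout against 48.5 ± 0.91% in control GFP-negative bone (SD, n = 3 each). In marrow its TPM share was 32.9 ± 6.54% in knockout and 31.9 ± 2.73% in control cells. The Plod3 TPM share was 11.8 ± 0.69% in knockout against 22.6 ± 0.94% in control GFP-negative bone. The bone groups named here did not overlap (exact two-sided permutation p of 0.1 each, the smallest possible), and the marrow groups did.

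Serpinh1 encodes HSP47, the collagen-specific chaperone of the endoplasmic reticulum (ENSMUSG00000070436.12, mm10 chr7:99345376-99353239, minus strand). On the TPM scale by merged exon length it was the most abundant of the 10 genes in each group, with 7481 ± 529.5 TPM in knockout against 16464 ± 956 TPM in control GFP-positive bone. In marrow, Serpinh1 had 2541, 2092.5 and 2189.8 CPM in knockout, against 5684, 6129.8 and 5304 CPM in control libraries. Its level in GFP-positive bone was 6051, 4976 and 5061 CPM in knockout, against 11384, 10566 and 11684 CPM in control libraries. Its level in GFP-negative bone was 5685, 4374 and 4421 CPM in knockout, against 9759, 9756 and 9174 CPM in control libraries. The groups were apart in every subset. Knockout over control, the log2 fold changes were -1.33 ± 0.12 (SE) in marrow, -1.06 ± 0.12 in GFP-positive bone and -0.99 ± 0.12 in GFP-negative bone, 2.51-, 2.09- and 1.98-fold lower (edgeR adjusted p = 6.44e-08, 5.09e-07 and 1.53e-06). Across all 16 other settings, these falls and those of P4ha1 and P4ha2 stayed past the threshold in the 3 subsets.

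Lox encodes lysyl oxidase, the copper enzyme that starts crosslinking in the matrix (ENSMUSG00000024529.13, mm10 chr18:52516069-52529867, minus strand). In GFP-negative bone, Lox had 1892, 1622 and 1607 CPM in knockout, against 1002, 1168 and 1006 CPM in control libraries. GFP-positive bone showed 245, 343 and 301 CPM in knockout, against 276, 190.1 and 177 CPM in control libraries. In marrow it had 1308, 1459 and 1219 CPM in knockout, against 1156, 1164 and 976 CPM in control libraries. Knockout libraries were higher without overlap in GFP-negative bone and in marrow, and 1 control library of GFP-positive bone lay within the knockout range. The log2 fold changes were 0.69 ± 0.15 (SE) in GFP-negative bone, 0.47 ± 0.15 in GFP-positive bone and 0.27 ± 0.15 in marrow (edgeR adjusted p = 0.000825, 0.0138 and 0.138). After the correction by longest transcript they were 0.29, -0.10 and -0.046 (adjusted p = 0.109, 0.578 and 0.825). By merged exon length they were 0.60 in GFP-negative bone, still called, and 0.26 in GFP-positive bone (adjusted p = 0.00212 and 0.151). The call in GFP-positive bone held in 8 of 16 other settings, and it ended without replicate 2 or 3 of the control (adjusted p = 0.0723 and 0.0691) or replicate 2 of the knockout libraries (adjusted p = 0.0897). An antisense gene overlaps Lox in the annotation, so its counts are uncertain to that extent.

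Loxl2, a lysyl oxidase relative that acts on type IV collagen, was low throughout (ENSMUSG00000034205.16, mm10 chr14:69609068-69695834, plus strand). In GFP-positive bone, Loxl2 had 51.9, 55.8 and 45.5 CPM in knockout, against 41.6, 35.4 and 36.6 CPM in control libraries. GFP-negative bone showed 67.6, 48.4 and 55.0 CPM in knockout, against 47.8, 42.2 and 44.5 CPM in control libraries. In marrow it had 18.7, 15.6 and 17.8 CPM in knockout, against 9.35, 14.8 and 19.9 CPM in control libraries. The groups were apart in both bone subsets and overlapped in marrow. The log2 fold changes were 0.44 ± 0.18 (SE) in GFP-positive bone, 0.35 ± 0.18 in GFP-negative bone and 0.25 ± 0.19 in marrow (edgeR adjusted p = 0.0463, 0.118 and 0.294). The call in GFP-positive bone ended in 11 of 16 other settings, with the replicate block among them (adjusted p = 0.0504), and after the correction by longest transcript the value was -0.29. Without replicate 3 of the control marrow libraries the marrow value was 0.53 (adjusted p = 0.0247). Loxl2 overlaps an antisense gene, Gm27177, and 2 more annotated genes, so its counts are uncertain to that extent.

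Pcolce encodes the enhancer that speeds removal of the procollagen C-propeptide (ENSMUSG00000029718.14, mm10 chr5:137605103-137613784, minus strand). In marrow, Pcolce had 409, 423 and 409 CPM in knockout, against 993, 1320.2 and 1148 CPM in control libraries. In GFP-positive bone it had 208, 288 and 233 CPM in knockout, against 612, 534 and 427 CPM in control libraries. In GFP-negative bone it had 1343, 1184 and 1248 CPM in knockout, against 1585, 1665 and 1744 CPM in control libraries. The groups were apart in every subset, with the narrowest gap in GFP-negative bone. Knockout over control, the log2 fold changes were -1.48 ± 0.13 (SE) in marrow, -1.11 ± 0.13 in GFP-positive bone and -0.40 ± 0.13 in GFP-negative bone, 2.79-, 2.16- and 1.32-fold lower (edgeR adjusted p = 7.31e-08, 1.27e-06 and 0.0158). The call in GFP-negative bone held in 8 of 16 other settings. It ended with DESeq2 (adjusted p = 0.0646), with both length corrections (0.0524 and 0.366), and without replicate 3 of the control or replicate 2 of the knockout libraries (0.0556 and 0.0638). Pcolce overlaps Fbxo24 on the same strand, so its counts are uncertain to that extent.

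**Figure D3:**
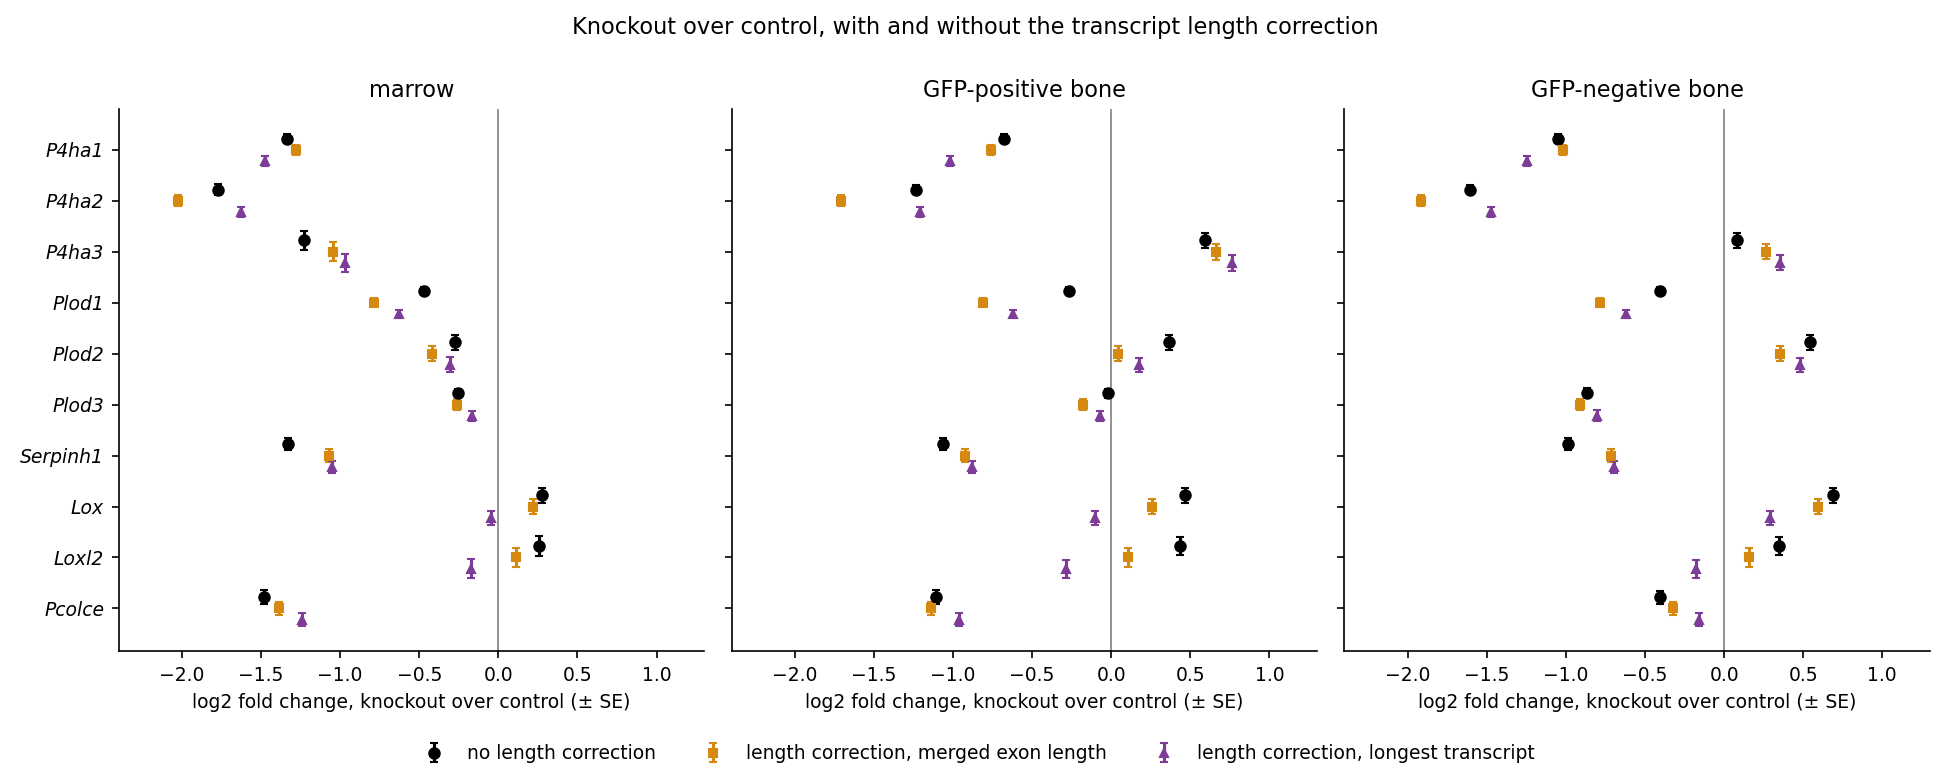
Log2 fold change of knockout over control with its SE for the 10 genes in the 3 subsets, without a length correction (black circles) and with a correction for merged exon length (orange squares) or for the longest transcript (purple triangles). P4ha1, P4ha2, Plod1, Serpinh1 and Pcolce lie left of 0 in every panel under each of the 3, while Lox and Loxl2 in GFP-positive bone lie right of 0 without the correction and left of it with the longest transcript.

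The knockout effect itself was compared between subsets with an interaction contrast. Between GFP-positive bone and GFP-negative bone, 1 of the 10 genes was called in each direction, where 6.08% of all genes were called, 4.98% higher and 1.11% lower. The effect on Plod3 was less negative in GFP-positive bone by 0.85 ± 0.13 on the log2 scale, and that on Pcolce was more negative there, by -0.71 ± 0.19 (edgeR adjusted p = 0.000596 and 0.0285). The Pcolce difference was called in 16 of 23 other settings, and in 5 of the 12 that left out 1 library. Between GFP-negative bone and marrow, 3 genes were called higher and 1 lower, where 7.79% of all genes were called, 4.49% higher and 3.31% lower. The differences were 1.31 ± 0.23 for P4ha3, 1.08 ± 0.19 for Pcolce, 0.82 ± 0.20 for Plod2 and -0.61 ± 0.14 for Plod3 (edgeR adjusted p = 0.00132, 0.00100, 0.0158 and 0.00748). Between GFP-positive bone and marrow, 4 genes were called higher and 0 lower, where 18.4% of all genes were called, 10.8% higher and 7.60% lower. The differences were 1.82 ± 0.24 for P4ha3, 0.65 ± 0.13 for P4ha1, 0.64 ± 0.20 for Plod2 and 0.54 ± 0.14 for P4ha2 (edgeR adjusted p = 3.77e-05, 0.00199, 0.0324 and 0.0100). The Plod2 difference was called in 10 of 23 other settings. For P4ha1 and P4ha2 this is a smaller fall in GFP-positive bone than in marrow, and with library totals in place of TMM the differences were 0.13 and 0.011 (adjusted p = 0.456 and 0.966). For Plod1, Serpinh1, Lox and Loxl2 no difference between subsets passed the threshold.

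In control mice the 10 genes also marked the subsets apart. Between control GFP-positive bone and control marrow cells, 8 of the 10 were higher and 2 lower, where 62.8% of all genes were called, 29.8% higher and 33.0% lower. The 2 lower ones were Lox, at -2.36 ± 0.16, and Pcolce, at -1.14 ± 0.13, while P4ha2 had the largest excess in GFP-positive bone, 2.57 ± 0.10 on the log2 scale (edgeR adjusted p = 1.47e-10, 4.23e-07 and 5.09e-14). Between control GFP-positive bone and control GFP-negative bone, 5 were higher and 3 lower, where 40.0% of all genes were called, 18.2% higher and 21.8% lower. The higher ones were P4ha1, P4ha2, Plod1, Plod2 and Plod3, by 0.72 to 1.12, and the lower ones P4ha3 (-1.23), Pcolce (-1.67) and Lox (-2.30). Serpinh1 and Loxl2 did not pass the threshold between these neighbours (0.23 ± 0.12 and -0.24 ± 0.18, adjusted p = 0.127 and 0.297). With the replicate block within genotype, the pairing taken for these libraries, Serpinh1 was called higher in control GFP-positive bone (0.23, adjusted p = 0.0319), and it was called in 9 of 17 other settings in all. Between control GFP-negative bone and control marrow cells, 8 were higher and 0 lower, where 39.3% of all genes were called, 21.1% higher and 18.2% lower. P4ha3 led with 2.15 ± 0.16, and Lox and Plod3 did not pass the threshold (-0.053 ± 0.15 and 0.013 ± 0.095, adjusted p = 0.810 and 0.931). Over all 6 groups the ratio of the highest to the lowest mean CPM was 20.3 for P4ha2, at 1134 CPM in control GFP-positive bone and 55.9 CPM in knockout marrow cells, and 3.07 for Plod3.

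Collagen transcripts, the substrate side, moved with some of the 10 genes and against others. Without a length correction, the collagen sum was higher in the knockout of both bone subsets, as were Plod2 and Lox. P4ha1, P4ha2, Plod1, Serpinh1 and Pcolce were lower there. The 11 fibrillar collagen genes summed to 139750 ± 5530 TPM in knockout against 58167 ± 4876 TPM in control GFP-positive bone, and to 258110 ± 33969 TPM in knockout against 155660 ± 6693 TPM in control GFP-negative bone (SD, n = 3 each). The log2 fold changes of Col2a1, Col1a1 and Col1a2 were 1.64, 0.34 and 0.96 in GFP-positive bone (edgeR adjusted p = 1.08e-07, 0.177 and 0.000339). In GFP-negative bone they were -0.22, 0.66 and 1.15 (edgeR adjusted p = 0.260, 0.0130 and 6.95e-05). The same sum thus rests on different collagens in the bone subsets. In marrow the collagen sum was 57377 ± 9985 TPM in knockout against 106210 ± 16871 TPM in control cells. Relative to this sum, Serpinh1 had 53.7 ± 5.80 TPM per 1000 TPM of fibrillar collagen in knockout against 284 ± 17.2 in control GFP-positive bone, 5.29-fold lower. In GFP-negative bone the Serpinh1 ratio was 27.3 ± 6.04 in knockout against 86.6 ± 2.49 in control cells, 3.17-fold lower. The 3 prolyl 4-hydroxylase subunits together had 5.84 ± 0.35 TPM per 1000 TPM of fibrillar collagen in knockout against 26.6 ± 1.44 in control GFP-positive bone, and 1.57 ± 0.33 in knockout against 5.30 ± 0.44 in control GFP-negative bone. In both bone subsets the knockout and control ranges of these ratios were apart. In marrow the collagen sum, Serpinh1 and the 3 prolyl 4-hydroxylases were all lower in the knockout, and the groups of both ratios overlapped. The Serpinh1 ratio there was 79.5 ± 10.9 in knockout and 92.1 ± 18.01 in control cells. The prolyl 4-hydroxylase ratio was 3.04 ± 0.67 in knockout and 3.76 ± 0.42 in control cells.

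Pcolce followed the same pattern in bone, with 1.56 ± 0.29 TPM per 1000 TPM of fibrillar collagen in knockout against 8.45 ± 1.24 in control GFP-positive bone, and 4.54 ± 0.78 in knockout against 9.65 ± 0.83 in control GFP-negative bone. The 3 lysyl hydroxylases together had 6.62 ± 0.54 TPM per 1000 TPM of fibrillar collagen in knockout against 15.3 ± 1.36 in control GFP-positive bone, and 5.998 ± 0.77 in knockout against 3.46 ± 0.57 in control marrow cells, lower in the first pair and higher in the second, both without overlap. In GFP-negative bone this ratio was 2.11 ± 0.49 in knockout against 3.20 ± 0.37 in control cells, without overlap. Under the merged exon and longest transcript corrections described below it was 1.31- and 1.10-fold lower there, with overlap under the second. Under the same corrections it was 1.77- and 1.72-fold lower in GFP-positive bone and 2.01- and 2.3-fold higher in marrow. In marrow the Pcolce ratio was 9.31 ± 1.62 in knockout against 11.7 ± 0.77 in control cells, without overlap, and 1.09- and 1.27-fold higher in the knockout under the merged exon and longest transcript corrections described below. Per 1000 TPM of fibrillar collagen, Lox had 23.6 ± 3.44 TPM in knockout against 9.06 ± 2.26 TPM in control marrow cells, without overlap, and 4.91 ± 1.01 in knockout and 4.86 ± 0.24 in control GFP-negative bone, with overlap. In GFP-positive bone the Lox ratio was 1.51 ± 0.27 in knockout against 2.73 ± 0.49 in control cells, 1.81-fold lower without overlap, and it overlapped after the merged exon length correction. Each comparison of such ratios without overlap had an exact two-sided permutation p of 0.1, the smallest that 3 against 3 can give. The collagen transcripts are long, and fold changes in these data follow transcript length, with Spearman's rho of 0.406 to 0.444 over 15511 genes for the longest transcript (a description, since genes are not independent replicates). With the merged exon length correction the Serpinh1 ratio was 67.5 in knockout against 195 in control GFP-positive bone, 2.89-fold lower, and 1.95-fold lower in knockout GFP-negative bone. With the longest transcript correction these falls were 2.97-fold and 1.77-fold, and the groups did not overlap under either correction. For the prolyl 4-hydroxylase ratio the falls were 3.21- and 3.39-fold in GFP-positive bone and 2.60- and 2.44-fold in GFP-negative bone under the 2 corrections, without overlap. The Pcolce ratio in GFP-negative bone was 1.49-fold lower by merged exon length and 1.22-fold lower by longest transcript, with overlap under the second. In marrow the Serpinh1 ratio was 1.32- and 1.42-fold higher in the knockout under the 2 corrections, opposite to its uncorrected direction. The osteoblast and chondrocyte marker sums given above share Col1a1, Col1a2 and Col2a1 with the collagen sum, and the part of cell make-up in these ratios was not tested.

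**Figure D4:**
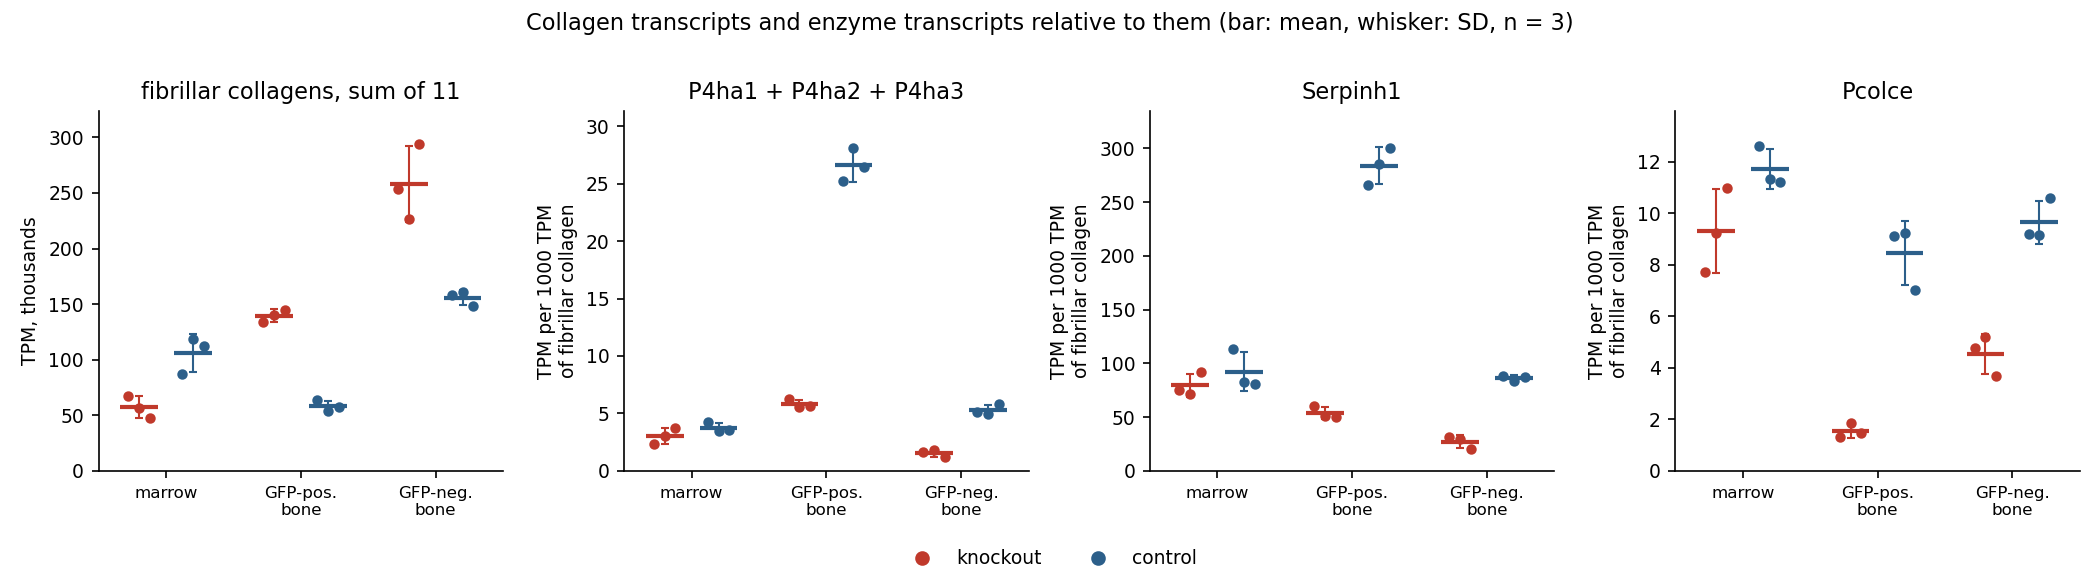
Summed TPM of the 11 fibrillar collagen genes, divided by 1000 (left) and TPM of the prolyl 4-hydroxylase subunits, Serpinh1 and Pcolce per 1000 TPM of fibrillar collagen, on linear axes from 0. Points are libraries, bars are means and whiskers SD over 3 libraries, knockout in red to the left of control in blue. In both bone subsets the collagen sum is higher and the 3 ratios are lower in the knockout, without overlap.

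Other genes of collagen folding were read against the share over all genes, of which 24.8%, 25.3% and 25.7% were lower and 23.1%, 26.0% and 21.5% higher in knockout marrow, GFP-positive bone and GFP-negative bone. Of 12 hydroxylation and folding partners, 8 were lower and 1 higher in knockout marrow cells, 6 lower and 3 higher in knockout GFP-positive bone, and 9 lower and 1 higher in knockout GFP-negative bone, with median log2 fold changes of -0.80, -0.32 and -0.84. P4hb, the beta subunit of prolyl 4-hydroxylase, had 879 ± 52.4 CPM in knockout against 1728 ± 120.0 CPM in control marrow cells and a log2 fold change of -0.97 ± 0.088 (edgeR adjusted p = 7.63e-08). Ppib, the cyclophilin that turns proline bonds in procollagen, fell in all 3 subsets, with log2 fold changes of -1.06 ± 0.086 in marrow, -0.64 ± 0.084 in GFP-positive bone and -0.89 ± 0.085 in GFP-negative bone. Fkbp14, a peptidyl-prolyl isomerase of the endoplasmic reticulum, fell too, with -1.01 ± 0.089, -0.80 ± 0.088 and -0.91 ± 0.089 in the same subsets. Among those that rose were P3h2, a prolyl 3-hydroxylase, in marrow (0.75 ± 0.17) and Colgalt2, a collagen galactosyltransferase, in GFP-positive bone (0.93 ± 0.17). Both fell in GFP-negative bone, P3h2 with -1.43 ± 0.18 and Colgalt2 with -1.28 ± 0.18 (edgeR adjusted p = 2.50e-06 and 1.54e-05).

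Genes that act on procollagen after folding were also counted. Of 6 measured propeptide proteases and enhancers, 4 were higher and 0 lower in knockout GFP-positive bone, 5 higher and 1 lower in knockout GFP-negative bone, and 1 higher and 2 lower in knockout marrow cells, with medians of 0.87, 0.80 and -0.45. After the merged exon length correction these counts were 2 higher and 1 lower in GFP-positive bone, 3 higher and 1 lower in GFP-negative bone, and 1 higher and 3 lower in marrow, with medians of 0.21, 0.53 and -0.94. By longest transcript 2 were higher and 2 lower in GFP-positive bone, with a median of 0.14. Adamts2, the procollagen N-proteinase, had 108 ± 14.5 CPM in knockout against 58.7 ± 7.60 CPM in control GFP-positive bone, and 896 ± 67.0 CPM in knockout against 399.6 ± 41.3 CPM in control GFP-negative bone (log2 fold changes 0.88 ± 0.12 and 1.17 ± 0.12, edgeR adjusted p = 6.79e-06 and 2.57e-07). Pcolce2, a relative of Pcolce, fell in GFP-negative bone (-1.41 ± 0.13) and in marrow (-1.21 ± 0.15). Of the 3 other lysyl oxidases, Loxl4 rose most, with 1267 ± 88.3 CPM in knockout against 221 ± 14.9 CPM in control GFP-positive bone (2.52 ± 0.19, adjusted p = 1.30e-08). Of 5 export genes, 3 were lower and 1 higher in knockout marrow cells, 1 lower and 2 higher in knockout GFP-positive bone, and 1 lower and 1 higher in knockout GFP-negative bone. The medians were -0.54, 0.20 and 0.14 in this order. After the merged exon length correction 4 export genes were lower and 1 higher in marrow, and 3 lower and 2 higher in GFP-positive bone. In GFP-negative bone 2 were lower and 2 higher, and the medians were then -0.80, -0.29 and -0.18. Sec23a, a coat protein of the vesicles that leave the endoplasmic reticulum, fell in all 3 subsets, with -0.74 ± 0.099 in marrow, -0.32 ± 0.098 in GFP-positive bone and -0.41 ± 0.098 in GFP-negative bone, and Sec24d, another coat protein, fell in marrow (-0.54 ± 0.090). Mia3, which packs procollagen into large vesicles, rose in all 3 subsets, by 0.67 ± 0.10 in marrow, 1.14 ± 0.10 in GFP-positive bone and 1.21 ± 0.10 in GFP-negative bone. Creb3l1, the factor that drives secretory genes in osteoblasts, fell in marrow (-1.21 ± 0.12) and rose in GFP-positive bone (0.36 ± 0.12). Of the 11 fibrillar collagens, 10 were higher and 0 lower in GFP-positive bone, 9 higher and 0 lower in GFP-negative bone, and 3 higher and 2 lower in marrow, with medians of 1.64, 1.16 and 0.047. After the merged exon length correction these collagen counts were 6 higher and 0 lower in GFP-positive bone, 5 higher and 2 lower in GFP-negative bone, and 2 higher and 5 lower in marrow. The folding partners were then 5 lower and 2 higher in GFP-positive bone, 7 lower and 1 higher in GFP-negative bone, and 8 lower and 1 higher in marrow. Shares of all genes called higher and lower after the length corrections are not given here. The corrected counts were therefore not read against such a share. Settings that kept all libraries, the length corrections among them, called 6119 to 7593 genes in marrow. In GFP-positive bone they called 6866 to 8566 and in GFP-negative bone 5887 to 7620.

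Of 21 hypoxia-induced genes, 14 were lower and 6 higher in knockout GFP-positive bone, 9 lower and 6 higher in knockout GFP-negative bone, and 6 lower and 7 higher in knockout marrow cells, with medians of -1.40, -0.57 and 0.15. Over all genes 25.3% were lower and 26.0% higher in GFP-positive bone, 25.7% and 21.5% in GFP-negative bone, and 24.8% and 23.1% in marrow, where the list's 6 lower and 7 higher genes are near that share. In GFP-positive bone the smallest p-values among the lower ones belonged to Fam162a (-2.50 ± 0.096), Higd1a (-2.06 ± 0.10) and the glycolytic gene Pgk1 (-1.92 ± 0.10), and among the higher ones to Hk2, Vegfa and Pfkfb3 (2.19 ± 0.19, 0.96 ± 0.14 and 1.36 ± 0.28). In GFP-negative bone Higd1a, Fam162a and Pgk1 again led the lower ones (-2.01 ± 0.11, -1.84 ± 0.098 and -1.93 ± 0.10). In marrow Ndufa4l2 fell (-2.47 ± 0.19) and Vegfa rose (1.63 ± 0.14). Car9 had 0 counts in the 3 knockout libraries of GFP-positive bone against a mean of 2.50 CPM in the control libraries, at least 11.6-fold lower with 3 counts per library as the limit, and the list median there was -1.40 with Car9 at that bound too.

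**Figure D5:**
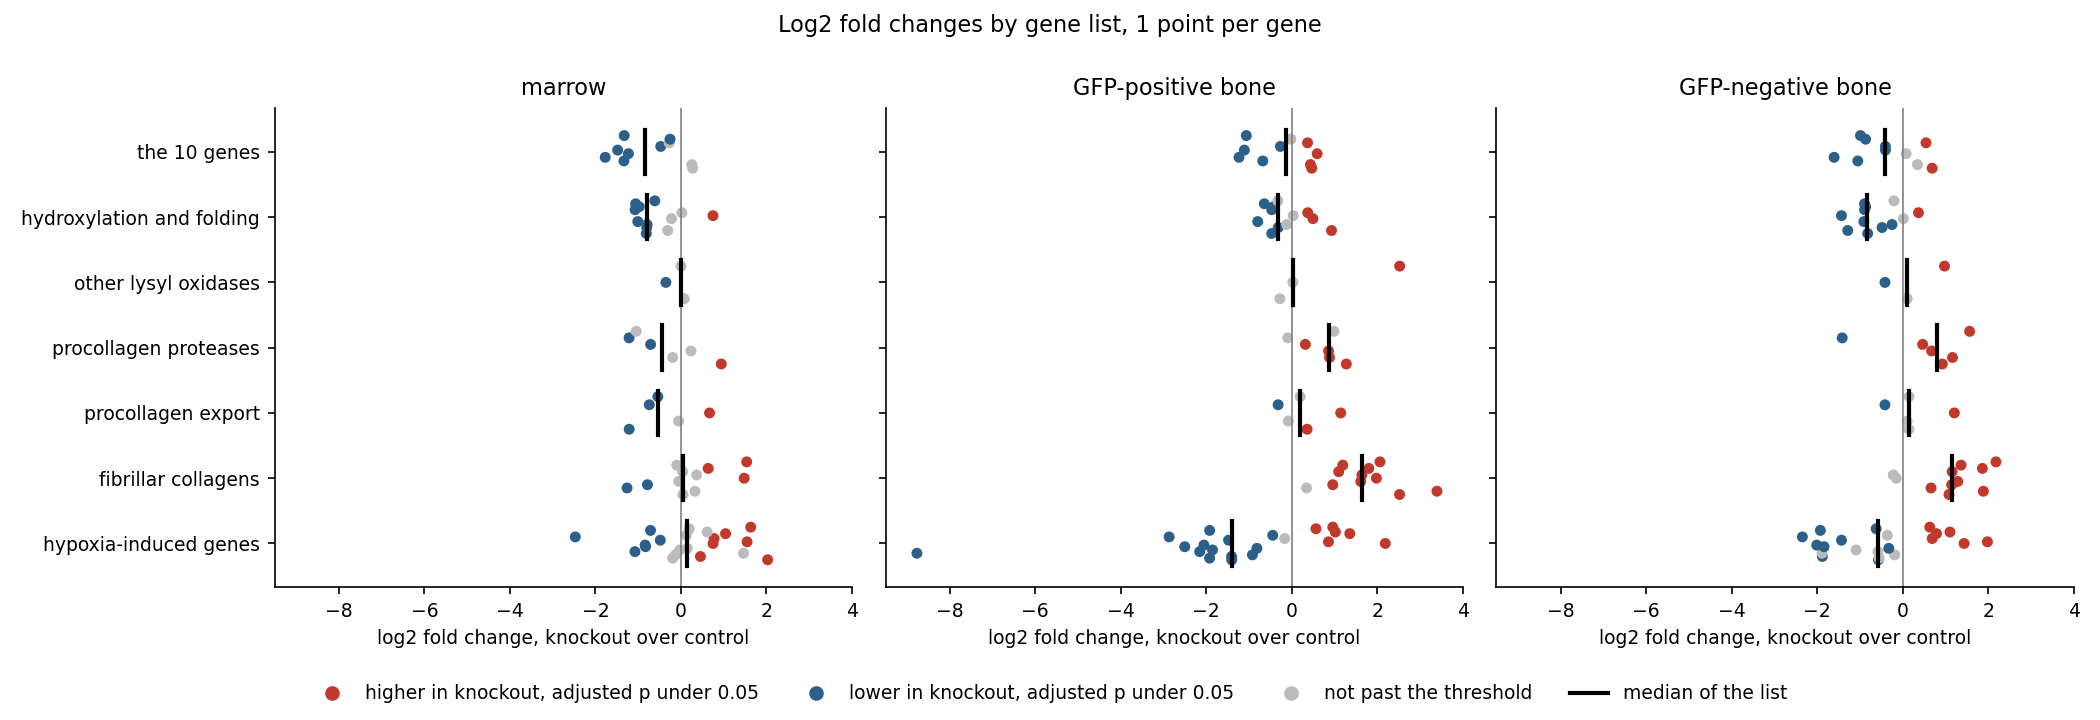
Log2 fold change of knockout over control of each gene of the 7 lists in the 3 subsets, red where higher and blue where lower in the knockout at an adjusted p under 0.05, grey otherwise, with the list median as a black line. In both bone subsets the folding partners lie mostly left of 0 and the fibrillar collagens mostly right of it. The point at -8.77 is Car9, whose fitted value has no lower limit because its knockout libraries had no count.

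Finally, the genes whose group means most resembled each of the 10 were listed by the root mean square difference of the 6 centred group means of log2 (CPM + 0.5), over 9513 genes that average at least 5 CPM. For P4ha1 they were P3h4, a partner of prolyl 3-hydroxylation (0.13), and Enho (0.16), and for P4ha2 Tmem97 (0.10) and the glycolytic gene Pkm (0.25). Serpinh1 had the closest match of all 10, Tceal9 (0.032), followed by Sra1 (0.084). Plod1 was nearest to Nudt18 (0.085) and Rpl30 (0.089), Plod2 to Ephb2 (0.17) and Uap1 (0.18), and Plod3 to Lpcat4 (0.082) and Nipa2 (0.16). Lox was nearest to Podxl2 (0.10) and Nfib (0.13), Loxl2 to Ephb3 (0.13) and Bag3 (0.16), P4ha3 to Rab27b (0.19) and Capg (0.30), and Pcolce to Fkbp7 (0.17) and Emid1 (0.19). These differences are in log2 units over 6 group means and carry no test. Among the 10 genes themselves the closest pair was P4ha1 and P4ha2, with 0.34.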

How the data were processed

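RNA was extracted from sorted cells and libraries made with SMART-Seq v4 and ThruPLEX chemistry, per the labels' protocols. The deposited values are raw read counts per gene, 1 table per library made by the authors, with the exon coordinates and merged exon length of each gene per the file headers. STAR, featureCounts, DESeq2 and the build mm10 are named, without versions, in the submitters' processing notes. Settings for strand and for multi-mapping reads: not given in the sources used here. Of 54446 gene IDs, 54409 matched a symbol in GENCODE M21. Totals were 16443595 to 27160257 counts per library.

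All 18 libraries were fitted with edgeR 4.0.16 in R 4.3.3, with 1 mean for each of 6 groups (12 residual degrees of freedom), TMM scaling, filterByExpr (minimum count 10, minimum total 15), which left 15516 genes, and a robust quasi-likelihood F-test, two-sided, with Benjamini-Hochberg adjusted p-values over these genes and calls at 0.05. Approximate SEs are the absolute log2 fold change over the square root of the F statistic. The fit was tested on simulated data. TPM were computed from the counts and merged exon lengths. CPM of single genes used TMM scaling, and marker sums used library totals without TMM. Length corrections fitted, in each library, a natural spline (4 degrees of freedom) over log2 length to each gene's deviation in log2 CPM from its mean over all libraries, and entered it as an offset. Alternatives were DESeq2 1.42.0, its size factors, library totals, no filter, only the groups compared, the replicate block, the length corrections and single libraries left out, and after seeing the data estimateDisp, a block within genotype and TPM by longest transcript.

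The labels number the libraries of each group 1 to 3. Over genes with a mean of at least 10 CPM, deviations of same-number libraries from their group means correlated at 0.108 to 0.303 between control subsets and 0.177 to 0.399 between knockout subsets, and at -0.14 to 0.286 between knockout and control of a subset. The numbers were taken to pair subsets within a genotype and not knockout with control. Over all genes tested the lowest of the first 2 ranges was 0.068.

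The 10 genes and the lists were chosen with earlier results of these data known. All 10 are named in every comparison. From other lists, up to 3 genes per direction with the smallest p were to be named per knockout comparison, and Car9, Col1a1, Col1a2 and Col2a1 were added after their values were seen. Promoter windows come from a RefSeq table.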

Additional observations from a re-analysis of the deposited data

Results flagged for a closer look

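For 10 results the knockout effect differed between 2 subsets by the interaction test of edgeR, and each is given here as the difference of log2 fold changes. Plod3 differed by 0.85 between GFP-positive and GFP-negative bone and by -0.61 between GFP-negative bone and marrow, with the fall in GFP-negative bone as the larger one in both. Pcolce differed by -0.71 between GFP-positive and GFP-negative bone and by 1.08 between GFP-negative bone and marrow, with the smallest fall in GFP-negative bone. P4ha3 differed by 1.31 between GFP-negative bone and marrow and by 1.82 between GFP-positive bone and marrow. Plod2 differed by 0.82 between GFP-negative bone and marrow and by 0.64 between GFP-positive bone and marrow. P4ha1 and P4ha2 differed by 0.65 and 0.54 between GFP-positive bone and marrow. Over 23 other settings each, both Plod3 differences, both P4ha3 differences and the Pcolce difference between GFP-negative bone and marrow stayed past the threshold in all 23. The Pcolce difference between GFP-positive and GFP-negative bone did so in 16, those of Plod2 in 21 and 10, that of P4ha1 in 22 and that of P4ha2 in 20. These effects share libraries of a subset where the same subset appears in 2 differences.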

How the results depend on the processing

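Log2 values follow, and where a direction changed the cause was not tested. P4ha1, P4ha2 and Serpinh1 kept their fall and its call in all 3 subsets under each of the 16 other settings per comparison. Library totals in place of TMM moved the median of all genes to -0.34 in GFP-positive bone, -0.30 in GFP-negative bone and 0.085 in marrow, against 0.030, -0.066 and -0.043 with TMM. With them 3735 genes, against 1209, differed in effect between GFP-negative bone and marrow, and 5676, against 2853, between GFP-positive bone and marrow, where 1 of the 10 genes was called instead of 4. Also with library totals, the knockout value of Plod2 in GFP-positive bone was -0.015, that of P4ha3 in GFP-negative bone -0.15 and the control value of Plod3 in GFP-negative bone over marrow -0.27. The differences between GFP-positive and GFP-negative bone were -0.0030 for Plod1 and -0.045 for Loxl2. Those between GFP-negative bone and marrow were -0.10 for P4ha1, -0.22 for P4ha2, -0.31 for Plod1, -0.043 for Serpinh1 and -0.30 for Loxl2. Those between GFP-positive bone and marrow were -0.31 for Plod1, -0.29 for Plod3, -0.26 for Serpinh1, -0.32 for Lox, -0.34 for Loxl2 and -0.15 for Pcolce. DESeq2 called 1420 genes, against 944, for the difference between GFP-positive and GFP-negative bone. DESeq2 and its size factors in edgeR both gave 0.011 for Plod3 in knockout GFP-positive bone and -0.038 for Plod3 in control GFP-negative bone over marrow, where the fit of only the groups compared gave -0.029 and no filter -0.0046. No filter gave -0.026 for the Loxl2 difference between GFP-positive and GFP-negative bone.

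The share of all genes called is not given for the merged exon length correction. With that correction 2 of the 10 genes, alone or with the replicate block, differed between GFP-positive bone and marrow. It gave differences of -0.025 for Plod1 and -0.046 for Loxl2 between the bone subsets, -0.0013 for Plod1 between GFP-negative bone and marrow, -0.026 for Plod1 and -0.0018 for Loxl2 between GFP-positive bone and marrow, and 0.0053 for Lox in control GFP-negative bone over marrow. With the block added these were -0.025, -0.039, -0.00025, -0.025 for Plod1 between GFP-positive bone and marrow, and 0.0088 for Lox. The longest transcript correction gave knockout values of -0.046 for Lox and -0.17 for Loxl2 in marrow, -0.10 and -0.29 in GFP-positive bone and -0.18 for Loxl2 in GFP-negative bone. It gave differences of -0.0054 for Plod1 and -0.11 for Loxl2 between the bone subsets, -0.0027 for Loxl2 between GFP-negative bone and marrow, and -0.059 for Lox and -0.11 for Loxl2 between GFP-positive bone and marrow. In control cells it gave 0.031 for Loxl2 in GFP-positive over GFP-negative bone and 0.052 for Lox in GFP-negative bone over marrow. Pcolce per fibrillar collagen in marrow was 0.12 by merged exon length and 0.34 by longest transcript.

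Leaving out single libraries gave 5 to 9 called genes in knockout GFP-positive bone and 1 to 2 for the difference between the bone subsets. Single-library ranges crossed 0 for Plod3 in knockout GFP-positive bone (-0.080 to 0.068), P4ha3 in knockout GFP-negative bone (-0.063 to 0.23) and Plod3 in control GFP-negative bone over marrow (-0.078 to 0.054). They did so for the differences between the bone subsets of Serpinh1 (-0.15 to 0.062), Lox (-0.34 to 0.00069) and Loxl2 (-0.017 to 0.24), between GFP-negative bone and marrow of Plod1 (-0.0052 to 0.12) and Loxl2 (-0.19 to 0.34), and between GFP-positive bone and marrow of Loxl2 (-0.096 to 0.43). The replicate block changed 1 of 90 calls, that of Loxl2 in knockout GFP-positive bone (0.44, adjusted p = 0.0504), and the block within genotype added Serpinh1 in control GFP-positive over GFP-negative bone (0.23, adjusted p = 0.0319). Depth was 16443595 counts or more in each library, and P4ha3 in marrow, near 5 CPM in the knockout, rests on the fewest counts.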
